A study of Mus musculus with 12 samples.

Results

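Heme supply, P450 electron transfer and xenobiotic sensing were followed through 8 genes in mouse liver: Alas1, Alad and Fech of heme synthesis, Por and Cyb5a as electron partners of cytochrome P450, and the sensors Nr1i2, Nr1i3 and Ahr. The genes were chosen by name from the 48440 in each deposited table, and all 8 were among the 15244 genes with enough reads to be tested. The libraries came from livers of 8-week-old male C57BL/6 mice, either wild type (WT) or transgenic (TG) for E4BP4 overexpressed in the liver, taken at ZT2 or ZT14, the hours after lights on in a cycle of 12 h light and 12 h dark. All groups had normal chow and no treatment, and each of the 4 groups held 3 libraries. The sources used here do not give the promoter that drives the transgene, the founder line or whether livers were pooled. E4BP4 is the product of Nfil3, a transcriptional repressor of D-box elements, which the clock-controlled activators DBP, TEF and HLF also bind. Since no label names the 3 libraries of a group as separate mice, the p-values here cover the spread between libraries, and that spread may be technical.

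Heme is built in steps shared between mitochondrion and cytosol. ALAS1 makes aminolevulinate in the rate-limiting step in liver, ALAD joins it into porphobilinogen, and FECH inserts iron into protoporphyrin at the end. Much liver heme goes into cytochrome P450 enzymes, which receive electrons from NADPH through POR, with cytochrome b5 (CYB5A) as a further donor for some reactions. PXR (Nr1i2) and CAR (Nr1i3) are nuclear receptors, and AHR is a ligand-activated bHLH-PAS factor, and these sensors switch on P450 genes and transporters when foreign compounds arrive.

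Promoter sequence is shown for the 3 genes whose rise from ZT2 to ZT14 in WT was called (adjusted p below 0.05), since D-box elements are the sites E4BP4 is known to bind. RefSeq windows of 250 bases before a start site (build GRCm38.p6) matched 5 of the 8 genes, with 7 windows. Windows are printed 5′ to 3′ on the gene's strand up to any annotated exon, with capitals marking an E-box or a GCGTG core. The Por window (chr5:135688895-135689035, plus strand) lies in an intron ahead of an internal start, and the Nr1i3 (chr1:171213720-171213969, plus strand) and Nr1i2 (chr16:38294825-38295074, minus strand) windows lie outside annotated genes.
Por: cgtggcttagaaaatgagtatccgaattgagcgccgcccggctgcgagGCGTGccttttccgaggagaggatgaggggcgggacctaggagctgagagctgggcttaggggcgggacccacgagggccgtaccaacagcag
Nr1i3: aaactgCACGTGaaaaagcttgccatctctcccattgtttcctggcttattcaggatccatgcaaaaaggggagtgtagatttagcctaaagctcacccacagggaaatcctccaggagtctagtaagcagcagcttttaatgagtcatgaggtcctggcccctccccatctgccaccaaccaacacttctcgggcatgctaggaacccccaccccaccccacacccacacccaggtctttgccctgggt
Nr1i2: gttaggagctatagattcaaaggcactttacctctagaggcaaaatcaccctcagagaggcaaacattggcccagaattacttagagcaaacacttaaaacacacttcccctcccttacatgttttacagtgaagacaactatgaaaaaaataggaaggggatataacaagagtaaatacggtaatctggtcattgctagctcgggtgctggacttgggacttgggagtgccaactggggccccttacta
Searched on both strands, the D-box TTANGTAA was in 0 of the 7 windows and in 2.06% of 32851 windows of that length over all RefSeq genes. The E-box CACGTG, a clock activator motif, was in the Nr1i3 window with its outermost base at position -244 and in both Alad windows, against 6.02% of all windows. The AHR core GCGTG occurred 3 times in the whole Por window, at -202, -62 and -24, and once each in 1 Alad and 1 Alas1 window, against 28.2% of all windows. No E-box overlapped a GCGTG core. A match describes letters in the window and is not a binding site, and the Alas1 windows, which lie in annotated exons, are not printed.

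Depth ran from 16035121 to 23981021 total gene reads per library. Read levels are given as CPM, the usual scaling of read counts to library size, here after TMM normalisation, and levels between genes as the deposited TPM, which is scaled for length. Nfil3 stood at 48.8, 29.4 and 37.6 CPM in WT and 71.1, 69.8 and 62.6 in TG at ZT2, and at 28.1, 40.4 and 24.6 in WT and 63.8, 93.9 and 77.9 in TG at ZT14. TG libraries were above every WT library of the same time, by a log2 fold change of 0.81 (edgeR quasi-likelihood test, adjusted p = 0.359) at ZT2 and 1.34 (adjusted p = 0.0306) at ZT14. The ZT14 difference was called in 12 of 23 alternative analyses, at 1.19 to 1.58 with single libraries left out (adjusted p up to 0.217), and the difference on the mean of both times was 1.07 (adjusted p = 0.00942). Hepatocyte markers summed to 59850 to 77147 CPM, no gene of the 9 marker lists was at 0 in all 12 libraries, and erythroid genes, whose cells also make heme, summed to 238 to 547 CPM. Male-biased liver genes summed to 2119 to 2982 CPM in TG against 3042 to 3368 in WT at ZT2, with no overlap. At ZT14 they summed to 1407 to 2569 in TG against 2459 to 2712 in WT, and their part in the results was not tested. Gene by gene, 0 of the 5 were called for genotype at ZT2 (0.0722% of all genes were) or at ZT14 (0.0853%). For time, 2 of the 5 were called lower at ZT14 in each genotype, against 9.17% of all genes called in WT and 12.2% in TG. On the second principal component, replicate 2 of TG at ZT2 and replicate 3 of TG at ZT14 lay at -30.8 and -33.2 against 2.0 to 12.1 for the other 10, and these 2 libraries had the lowest male-biased sums (2119 and 1407 CPM). Without both libraries the call counts for the 8 genes were 3 in WT and 2 in TG for time and 0 for genotype, while Nfil3 was not called at ZT14 (1.34, adjusted p = 0.145) or on the mean (1.07, adjusted p = 0.0639).

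Between ZT2 and ZT14, calls were made for rises of Por (3.10-fold in WT and 3.45-fold in TG), Alas1 in TG (7.74-fold), and Nr1i2 (1.36-fold) and Nr1i3 (1.82-fold) in WT. Not called were Alas1 in WT (2.73-fold, edgeR adjusted p = 0.0692), Nr1i3 in TG (1.58-fold, 0.106) and Nr1i2 in TG (1.10-fold, 0.521). For none of these genes was the time difference in TG called as different from that in WT. The remaining genes, Alad, Fech, Cyb5a and Ahr, were called in neither genotype. At an adjusted p below 0.05, 3 of 8 genes rose in WT, where 9.17% of all genes tested were called (4.85% higher), and 2 of 8 rose in TG, where 12.2% were called (6.7% higher). None of the 8 was called lower in either genotype. Groups did not overlap for 5 of 8 genes in WT, against 29.3% of all genes, and for 2 of 8 in TG, against 30.0%. In bulk liver, a change in the number of cells of a type and a change in RNA per cell cannot be told apart.

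**Figure D1:**
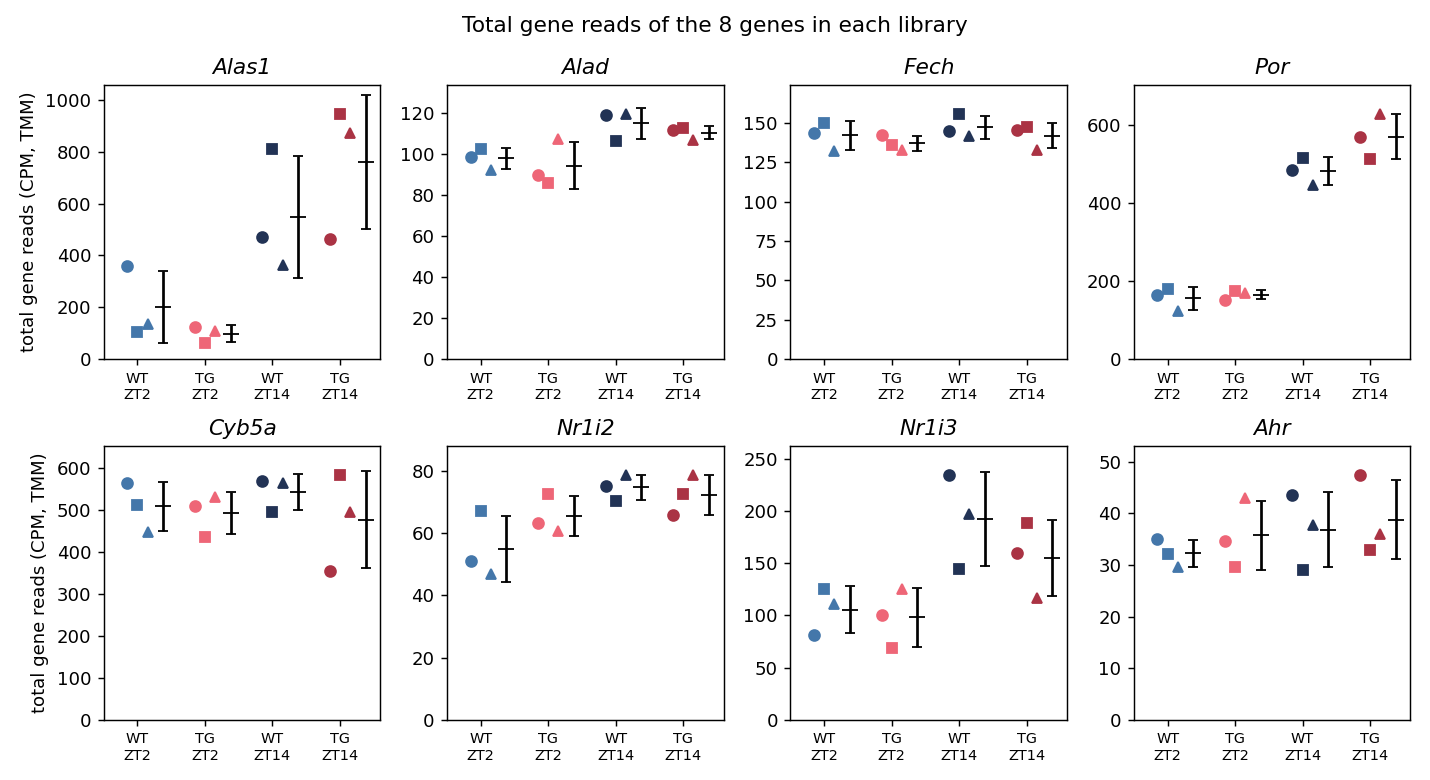
Total gene reads (CPM, y axis from 0) of the 8 genes in every library, by group on the x axis; circle, square and triangle are replicates 1, 2 and 3, and the bar is the mean and SD of 3 libraries. Por moves from 123 to 179 CPM at ZT2 to 445 to 627 at ZT14, while the groups overlap in Fech and Ahr.

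Alas1 (ENSMUSG00000032786, chromosome 9, 106233455 to 106248126, minus strand) stood at 359.8, 104 and 137 CPM in WT and 125, 63.2 and 107 in TG at ZT2. At ZT14 it stood at 471, 812 and 362 CPM in WT and 465, 945 and 871 in TG. On total gene reads, libraries at ZT14 were above those at ZT2 in both genotypes, in WT by a narrow margin, since replicate 1 at ZT2 (359.8) nearly met replicate 3 at ZT14 (362). In TG the log2 fold change was 2.95 ± 0.48 (SE; edgeR adjusted p = 0.0021), a rise that was called in each of 23 alternative analyses. In WT it was 1.45 ± 0.46 (edgeR adjusted p = 0.0692) and was not called. It was called in 4 of the 23 alternatives: without WT at ZT2 replicate 1 the value was 2.18 (adjusted p = 0.0103), with library size alone 1.53 (adjusted p = 0.0492), with limma-voom 1.59 (adjusted p = 0.0466) and with no filter beyond 1 read 1.46 (adjusted p = 0.00734).

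The time difference of Alas1 in TG less that in WT was 1.501 ± 0.64 on the log2 scale (edgeR adjusted p = 0.795, unadjusted p = 0.0357) and was not called. It ran from 0.77, without WT at ZT2 replicate 1, to 1.897, without WT at ZT14 replicate 2, when single libraries were left out. No gene of the 8 was called in that test, where 0.00656% of all genes were, and 1 of 8 (Alas1) had an unadjusted p below 0.05, against 5.98% of all genes. DESeq2 and limma-voom also called 0 of the 8 there. At ZT2 the log2 fold change of TG against WT was -1.03 ± 0.45 (adjusted p = 0.64), with overlapping libraries, and without WT at ZT2 replicate 1 the value was -0.30. At ZT14 the value was 0.47 ± 0.45 (adjusted p = 0.849).

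The share of Alas1 reads that lay in introns varied widely between libraries of the same group. Intron reads made up 26.5%, 47.0% and 16.7% of its reads in WT and 6.05%, 27.0% and 6.17% in TG at ZT2, and 11.1%, 21.4% and 30.4% in WT and 8.85%, 5.27% and 15.7% in TG at ZT14. Groups overlapped by time in both genotypes and by genotype at both times. The overlap by genotype came from replicate 2 of TG at ZT2 (27.0%) and replicate 3 of TG at ZT14 (15.7%). These are the 2 libraries that lay apart on the second principal component. The other TG libraries (6.05%, 6.17%, 8.85% and 5.27%) were below every WT library of their time. The pooled within-group SD of the Alas1 share was 11.3 percentage points. The median was 1.41 over 5004 genes with a mean of at least 500 reads and an intron read in every library, and 9 of those genes (0.180%) had a larger SD. The genes were not matched for their mean intron share, on which an SD in points depends. TG differed from WT by -14.03 points (exact 2-sided permutation within time, 400 relabellings, p = 0.05, adjusted p = 0.213 over 16 tests), which did not pass. Without the 2 libraries that lay apart the difference was -18.9 points and did not pass either.

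**Figure D2:**
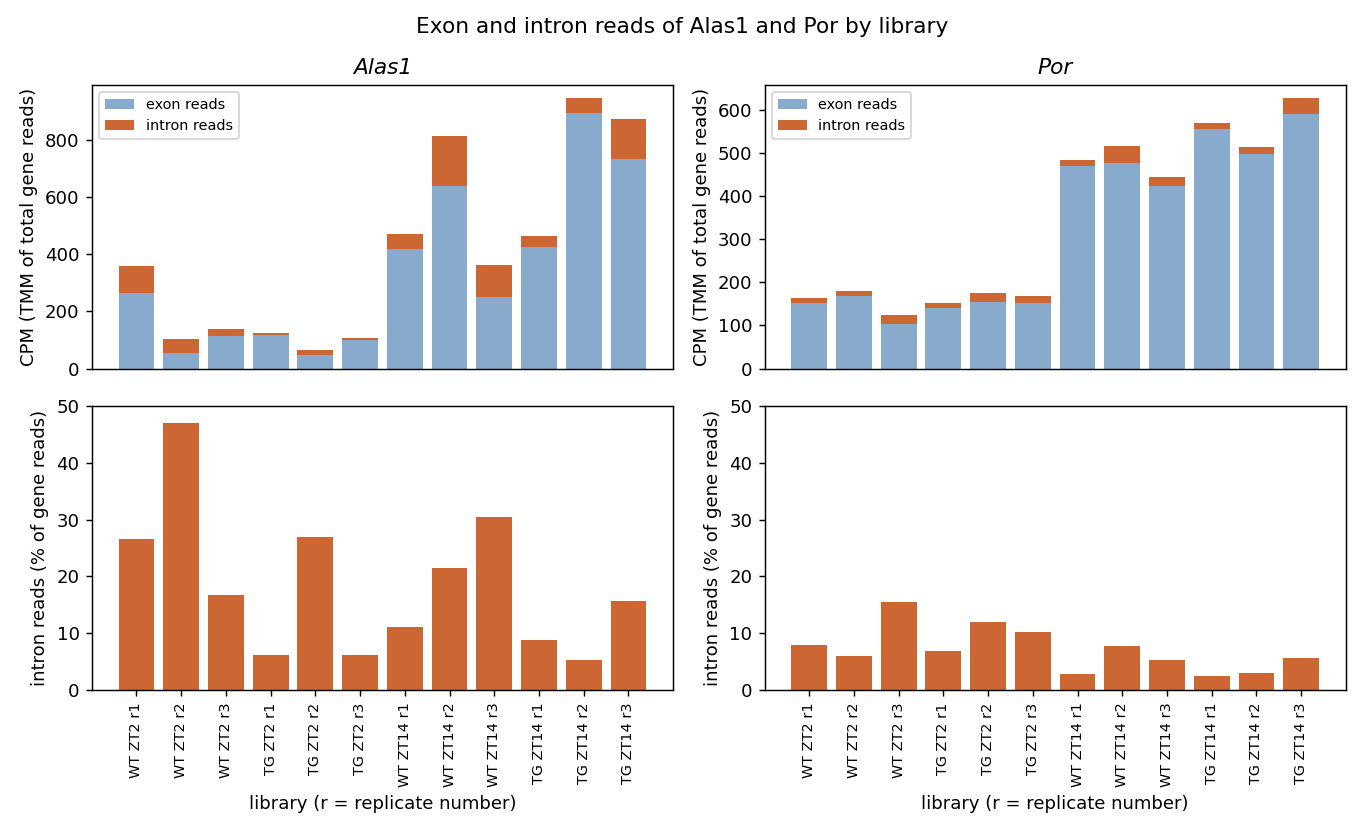
Exon and intron reads of Alas1 and Por in each library (upper panels, stacked CPM) and the percent of gene reads that lay in introns (lower panels). In Alas1 the intron share runs from 5.27% to 47.0% with overlapping groups, and in Por exon reads are 104 to 169 CPM at ZT2 and 422 to 591 at ZT14.

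On exon reads alone 2 of 8 genes were called in WT, against 11.1% of genes tested, and 2 of 8 in TG, against 13.5%. Exon reads gave Alas1 log2 fold changes of 1.61 in WT (edgeR adjusted p = 0.0697) and 2.95 in TG (adjusted p = 0.00412). Its WT exon reads overlapped between times, with 264 CPM in replicate 1 at ZT2 and 252 in replicate 3 at ZT14. Intron reads alone gave 0.83 in WT (adjusted p = 0.525) and 2.85 ± 0.61 in TG (adjusted p = 0.0149). In TG they were 7.56, 17.0 and 6.58 CPM at ZT2 and 41.1, 49.8 and 137 at ZT14, so the libraries of ZT14 were all above those of ZT2. That intron call was lost without TG at ZT2 replicate 1 (2.69, adjusted p = 0.0742) or replicate 3 (2.59, adjusted p = 0.0685). This was the 1 gene of 8 called for intron reads in TG, where 5.64% of genes were called, and 0 of 8 were called in WT, where 1.93% were.

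Alad (ENSMUSG00000028393, chromosome 4, 62509169 to 62519918, minus strand) was at 98.4, 102 and 92.0 CPM in WT and 89.7, 85.5 and 107 in TG at ZT2, and at 119, 106 and 119 in WT and 111, 113 and 107 in TG at ZT14. WT libraries of the 2 times did not overlap, and in TG replicate 3 at ZT2 (107) met the lowest at ZT14. The log2 fold change was 0.23 ± 0.09 in both genotypes (edgeR adjusted p = 0.145 in WT and 0.133 in TG), and neither was called. Fech (ENSMUSG00000024588, chromosome 18, 64456550 to 64489066, minus strand) stayed between 132 and 156 CPM over all 12 libraries. Its time difference was 0.05 in both genotypes, with 95% intervals of -0.12 to 0.22. The other heme synthesis genes gave no call at any contrast (0 of 6 by edgeR, DESeq2 and limma-voom, with 1 at an unadjusted p below 0.05, for time in WT), with erythroid Alas2 at 83.2 to 126 CPM.

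Among 15 genes of heme breakdown and transport, 2 rose in WT and 1 rose and 1 fell in TG from ZT2 to ZT14, shares near those of all genes called (9.17% in WT and 12.2% in TG). Abcb10, a mitochondrial transporter linked to heme synthesis, was 20.7 to 23.8 CPM at ZT2 and 29.2 to 33.4 at ZT14 in WT (log2 fold change 0.51, edgeR adjusted p = 0.00888). Slc25a39, a mitochondrial carrier, rose in WT (0.29, adjusted p = 0.0457) and in TG (0.28, adjusted p = 0.0385), calls made in 8 and 10 of 23 alternatives and at an adjusted p up to 0.152 and 0.134 in the others. Hebp1, a heme-binding protein, fell in TG by 0.34 (adjusted p = 0.0168), from 145 to 156 CPM at ZT2 to 109 to 128 at ZT14. The Abcb10 call was made in each of 23 alternatives and the Hebp1 call in 19, the highest adjusted p being 0.0702, without TG at ZT2 replicate 3.

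Por (ENSMUSG00000005514, chromosome 5, 135670033 to 135735326, plus strand), the reductase of every microsomal P450, rose in both genotypes. At ZT2 it stood at 164, 179 and 123 CPM in WT and 151, 175 and 169 in TG. At ZT14 it stood at 483, 515 and 445 CPM in WT and 569, 513 and 627 in TG, with no overlap between times. The log2 fold changes were 1.63 ± 0.14 in WT (3.10-fold, edgeR adjusted p = 2.2e-05) and 1.79 ± 0.14 in TG (3.45-fold, adjusted p = 8.07e-06). Both were called in each of 23 alternative analyses, at 1.49 to 1.74 in WT and 1.71 to 1.86 in TG when single libraries were left out. TG against WT gave 0.09 ± 0.13 at ZT2 (adjusted p = 0.927, 95% interval -0.20 to 0.37) and 0.24 ± 0.13 at ZT14 (adjusted p = 0.734, -0.04 to 0.53).

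The intron reads of Por were not called in either genotype. They were 13.1, 10.6 and 19.0 CPM in WT and 10.4, 21.1 and 17.3 in TG at ZT2, and 13.4, 39.6 and 23.1 in WT and 14.02, 14.9 and 35.3 in TG at ZT14, which overlap. The log2 fold change was 0.73 ± 0.38 in WT (edgeR adjusted p = 0.385) and 0.38 ± 0.38 in TG (adjusted p = 0.623), and the exon fold changes were 1.69 and 1.86. The intron share at ZT14 less that at ZT2 was -5.30 points within genotype (exact 2-sided permutation, p = 0.015, adjusted p = 0.2 over 16 tests), where 21.5% of 5004 genes had an unadjusted p below 0.05 by time, and 6.47% were lower at ZT14 by that test. By genotype 6.61% of those genes had an unadjusted p below 0.05. Over the 8 genes, 0 of 16 tests of the intron share passed after adjustment, but 400 relabellings allow no p under 0.005, which for 1 gene alone is an adjusted p of 0.08, so no single gene could have passed by itself.

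**Figure D3:**
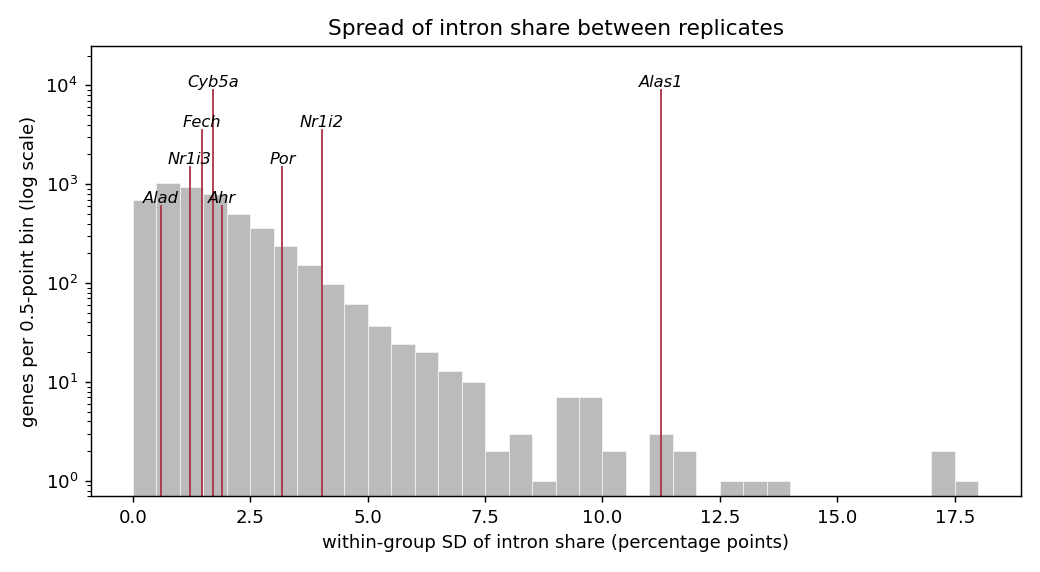
Histogram of the pooled within-group SD of the intron share (percentage points, x axis) for 5004 genes, in bins of 0.5 points on a log y axis, with lines at the 8 genes. Alas1 at 11.3 lies beyond all but 9 genes, and the other 7 genes lie between 0.594 and 4.03.

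Cyb5a (ENSMUSG00000024646, chromosome 18, 84851338 to 84880401, plus strand) ran from 355 to 584 CPM over the 12 libraries. Its lowest library was TG at ZT14 replicate 1 (355), against 584 and 495 for the other 2 of that group. The time difference was 0.09 ± 0.16 in WT (edgeR adjusted p = 0.793) and -0.05 ± 0.16 in TG (adjusted p = 0.893). The other P450 electron partners gave 1 call among 8 in TG, a share near the 12.2% of all genes. It was Pgrmc2, a membrane progesterone receptor component, which fell by 0.24 (adjusted p = 0.0296, called in 14 of 23 alternatives and at an adjusted p up to 0.165). In WT 0 of those 8 were called, and 1 had an unadjusted p below 0.05.

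Nr1i2 (ENSMUSG00000022809, chromosome 16, 38248323 to 38294824, minus strand), which encodes PXR, stood at 51.2, 67.0 and 46.7 CPM in WT and 63.2, 72.7 and 60.7 in TG at ZT2. At ZT14 it stood at 75.0, 70.4 and 78.5 in WT and 65.8, 72.5 and 78.6 in TG. WT libraries of the times did not overlap, while those of TG did. The log2 fold change was 0.44 ± 0.13 in WT (edgeR adjusted p = 0.0455, called) and 0.14 ± 0.13 in TG (adjusted p = 0.521), and the difference between them, -0.30 ± 0.18, was not called (adjusted p = 0.888). The WT call did not hold on exon reads (0.30, adjusted p = 0.17), with RLE size factors (adjusted p = 0.0509), in the 6 WT libraries alone (adjusted p = 0.0794), or with any single library left out other than WT at ZT2 replicate 2, TG at ZT14 replicate 1 or TG at ZT14 replicate 3. Those 9 analyses gave 0.34 to 0.48, with an adjusted p up to 0.171 (without WT at ZT2 replicate 1). Its intron reads alone gave 0.98 ± 0.25 in WT (adjusted p = 0.0588).

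Nr1i3 (ENSMUSG00000005677, chromosome 1, 171213970 to 171220701, plus strand), which encodes CAR, stood at 81.0, 125 and 111 CPM in WT and 101, 68.4 and 125 in TG at ZT2. At ZT14 it was at 235, 145 and 197 in WT and 159.7, 189 and 117 in TG. WT at ZT14 was above WT at ZT2 in every library, and in TG the ranges overlapped. The log2 fold change was 0.86 ± 0.25 in WT (edgeR adjusted p = 0.0478, called) and 0.66 ± 0.25 in TG (adjusted p = 0.106), with a difference between them of -0.20 ± 0.35 (adjusted p = 0.961). Only 38.9% to 54.4% of its reads were uniquely mapped, against 99.8% or more for the other 7 genes, and on unique reads the WT value was 0.65 (adjusted p = 0.0663). The gene overlaps Tomm40l on the other strand, at 11.6 to 19.8 CPM per library, of which 42.9% to 56.9% of reads were uniquely mapped, and the sources used here do not say whether counting used strand. The WT call was also lost with limma-voom (adjusted p = 0.0528) and in 7 of the 12 analyses that left out 1 library. Those 7 left out any WT library but replicate 2 at ZT14, or replicate 1 of TG at either time, and gave 0.70 to 1.003, with an adjusted p up to 0.181 (without WT at ZT14 replicate 1).

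Ahr (ENSMUSG00000019256, chromosome 12, 35497974 to 35535038, minus strand) ran from 29.1 to 47.4 CPM, with time differences of 0.19 ± 0.17 in WT (edgeR adjusted p = 0.578) and 0.12 ± 0.17 in TG (adjusted p = 0.726). Among the other 13 tested partners and coregulators of the sensors 2 were called in each genotype, against 9.17% and 12.2% of all genes. Hsp90aa1, the inducible HSP90 that holds AHR in the cytosol, rose in WT (0.79, adjusted p = 0.0188) and in TG (0.65, adjusted p = 0.0389). Ncoa2, a coactivator, fell in WT by 0.36 (adjusted p = 0.0356), and Nr0b2, the corepressor SHP, fell in TG by 1.46 (adjusted p = 0.00836). Of 23 alternatives, 18 and 13 called Hsp90aa1 in WT and TG, 15 called Ncoa2 and 22 called Nr0b2, which stood at an adjusted p of 0.05003 and was not called without the 2 libraries that lay apart. Without TG at ZT2 replicate 2, Hsp90aa1 in TG was at 0.47 (adjusted p = 0.137), and without WT at ZT14 replicate 1, Ncoa2 in WT was at -0.27 (adjusted p = 0.15).

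**Figure D4:**
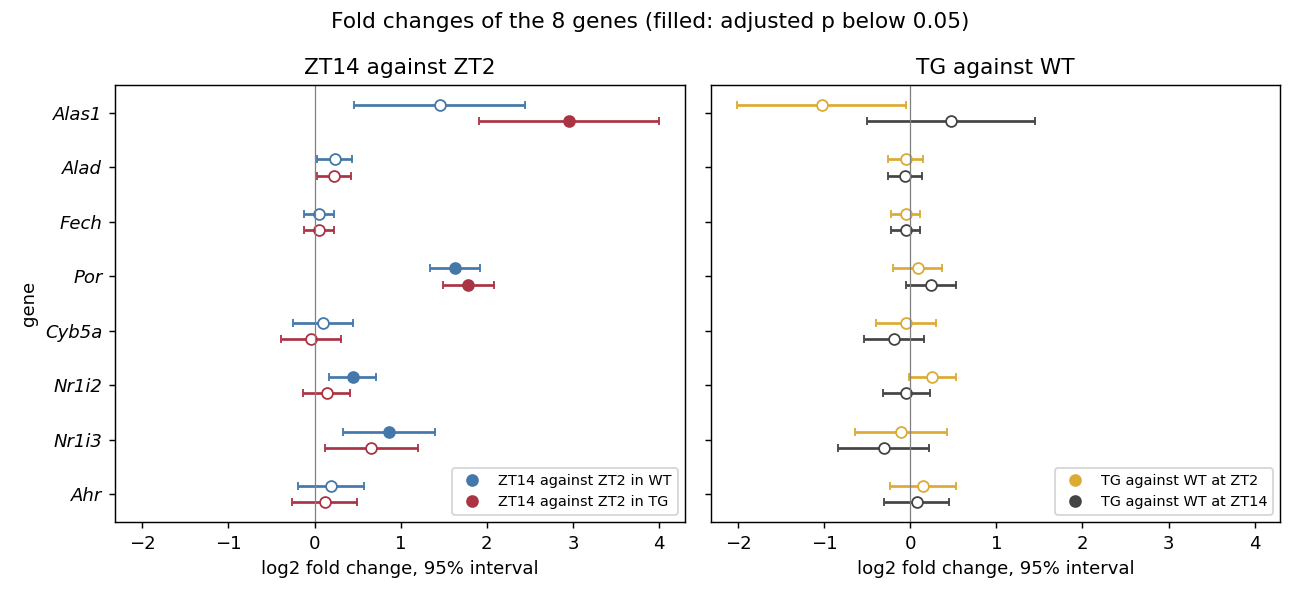
Log2 fold changes of the 8 genes with 95% intervals, for time in each genotype (left) and genotype at each time (right); filled points have an adjusted p below 0.05. Filled points occur only on the left, for Por in both genotypes, Alas1 in TG, and Nr1i2 and Nr1i3 in WT.

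In the test of TG against WT none of the 8 genes was called: 0 of 8 at ZT2, where 0.0722% of all genes were called, 0 of 8 at ZT14 (0.0853%) and 0 of 8 on the mean of both times (0.144%). DESeq2 and limma-voom called 0 of the 8 as well, and at an unadjusted p below 0.05 there was 1 of 8 (Alas1) at ZT2, against 7.56% of all genes, 0 at ZT14 (6.91%) and 0 on the mean (8.82%). On total gene reads, none of the 8 genes had TG and WT libraries fully apart at either time, where 12.1% of genes tested did at ZT2 and 12.4% did at ZT14. On exon reads 1 of 8 did at ZT14, Por at 422 to 476 CPM in WT and 498 to 591 in TG, against 13.0% of genes, and 0 of 8 did at ZT2 (12.1%). The largest 95% interval bounds on the log2 scale were -2.02 and 1.44, both for Alas1. For Fech the interval at ZT14 was -0.22 to 0.12.

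Of the 10 targets of CAR and PXR, 1 was called for time in each genotype, near the share of all genes (9.17% in WT and 12.2% in TG). Abcb1a, a drug efflux pump, rose from ZT2 to ZT14 in WT (0.879 to 1.46 CPM against 4.87 to 5.25, log2 fold change 2.05, edgeR adjusted p = 0.000941) and in TG (1.11, adjusted p = 0.0194). The WT call was made in each of 23 alternatives and the TG call in 19, with 0.74 (adjusted p = 0.0612) without TG at ZT14 replicate 3, 1.03 (0.0776) without TG at ZT2 replicate 1 and 1.004 (0.0786) without replicate 3. Slco1a4, an uptake transporter, stood at 28.0, 40.4 and 12.6 CPM in WT and 60.2, 72.3 and 62.4 in TG at ZT2, and at 25.1, 41.5 and 28.0 in WT and 69.6, 59.2 and 90.7 in TG at ZT14. TG libraries were above all WT libraries of both times, yet the log2 fold changes of 1.27 and 1.22 were not called (adjusted p = 0.359 and 0.452). With no filter beyond 1 read both were called (adjusted p = 0.0178 and 0.0256), in 1 of 23 alternatives each. On the mean of both times edgeR called 0 of the 10 targets for genotype, while DESeq2 and limma-voom each called 1. For genotype 3 of the 10 had an unadjusted edgeR p below 0.05 at ZT2, against 7.56% of all genes. There were 1 at ZT14 (6.91%), 2 on the mean (8.82%) and 1 for the interaction (5.98%). Over all genes tested, TG and WT libraries were apart for 12.1% at ZT2 and 12.4% at ZT14. The CAR, PXR and AHR targets listed here as apart were named for having the smallest p in these data. Their being apart is therefore partly built in, and a count over the whole lists is not given. Cyp2c55 was also higher in TG without overlap at both times. It was at 14.4 to 25.9 CPM against 3.62 to 12.1 at ZT2, and at 7.34 to 10.6 against 6.15 to 6.73 at ZT14. Abcb1a was higher in TG without overlap at ZT2 alone (1.93 to 2.86 CPM against 0.879 to 1.46). Ugt1a1 was lower in TG without overlap at ZT14 alone (439 to 592 CPM against 639 to 650). Cyp2b10, the classic CAR target, was at 7.04 CPM in TG at ZT2 replicate 2 and at most 1.71 elsewhere, and is named here after its values were seen. Of 8 AHR targets 6 were tested and 0 were called in any contrast (edgeR, DESeq2 and limma-voom), and Cyp1a2 was at 351 to 702 CPM. At ZT14 Cyp1a2 was lower in TG without overlap (515, 554 and 351 CPM against 645, 702 and 661 in WT), and at ZT2 the genotypes overlapped. The lowest Cyp1a2 (351) and Ugt1a1 (439) values at ZT14 were in TG replicate 3, which lay apart on the second principal component. The highest Cyp2c55 value (25.9) was in TG at ZT2 replicate 2, which also lay apart. For these genes the remaining TG replicates of that time were outside the WT range as well. Tiparp (5.29 to 5.53 CPM against 6.05 to 7.98) was also lower and apart at ZT14, as was Cyp1a1, at 0.199 to 0.627 against 1.03 to 1.37. Nqo1 was higher in TG and apart at ZT14 (3.88 to 4.85 against 2.65 to 3.68). At an unadjusted p below 0.05 in edgeR there were 4 of the 6 AHR targets for genotype on the mean of both times, against 8.82% of all genes, 2 at ZT14 (6.91%), 1 for the interaction (5.98%) and 0 at ZT2 and for time in either genotype. Of 8 circadian regulators, 3 rose and 4 fell at ZT14 in each genotype, against 9.17% of all genes called in WT and 12.2% in TG.

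**Figure D5:**
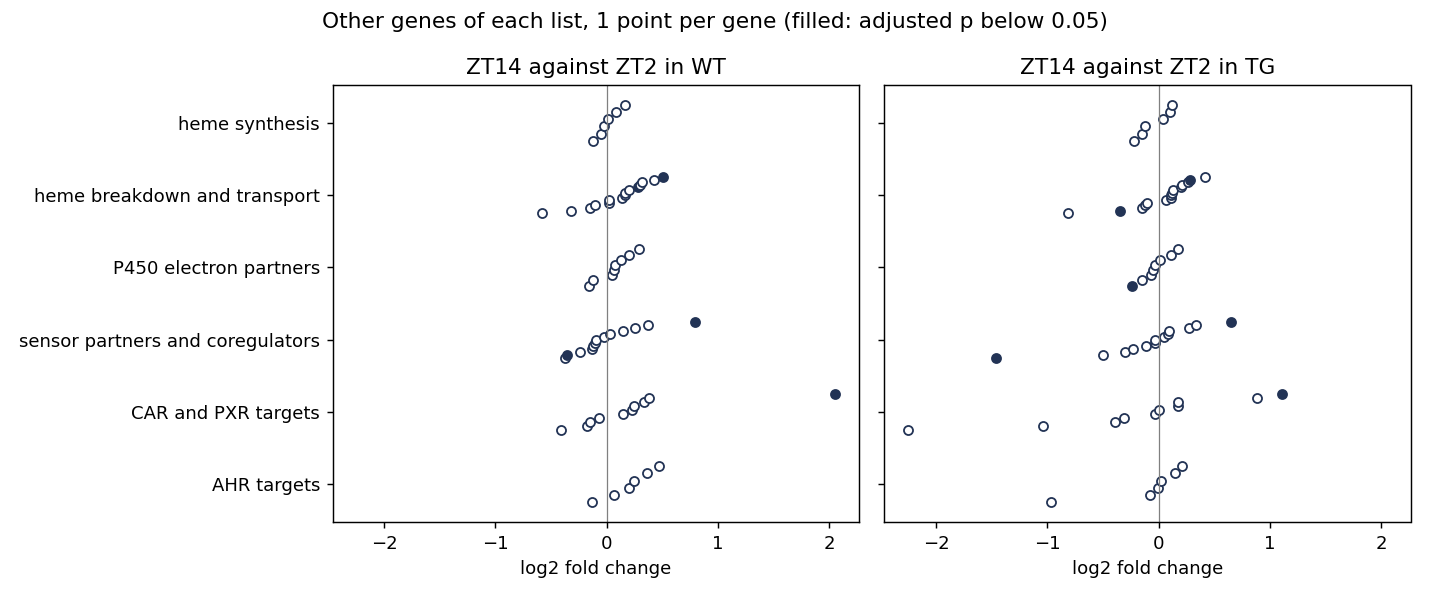
Log2 fold change between ZT14 and ZT2 for the tested genes of 6 lists other than the 8 genes, in WT (left) and TG (right), 1 point per gene; filled points have an adjusted p below 0.05. Among the filled points, Abcb1a lies at 2.05 in WT and 1.11 in TG.

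Between genes, on deposited TPM, Cyb5a had the highest mean and Ahr the lowest in every group. In WT at ZT2 the order was Cyb5a (509), Alad (114), Fech (99.6), Por (78.8), Alas1 (74.1), Nr1i3 (52.4), Nr1i2 (40.5) and Ahr (10.7), and neighbours from Fech to Nr1i2 overlapped in their libraries. In WT at ZT14 it was Cyb5a (576), Por (269.8), Alas1 (243), Alad (141), Fech (111), Nr1i3 (98.3), Nr1i2 (52.7) and Ahr (12.7), with Por overlapping Alas1, Alas1 overlapping Alad and Fech overlapping Nr1i3. In TG at ZT2 Alas1 (46.3) was below Nr1i2 (47.1), with overlap, and at ZT14 it was second (388), overlapping Cyb5a (518) and Por (337).

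Likeness was taken as the Pearson correlation of log2 CPM over the 12 libraries, which share the time groups, so it is a description only. Genes with Gm, Rik or pseudogene names or a mean under 5 CPM were left out. Among the rest, the genes most like Por were Upf1 (0.987), Nampt (0.986) and Rcan1 (0.986). Those most like Alas1 were Mtss1 (0.947), Dst (0.946) and Chd9 (0.945), and those most like Nr1i2 were Tat (0.963), Idh2 (0.951) and Afmid (0.921). For Nr1i3 they were Slc6a9 (0.940), Fam73b (0.926) and Eif2b3 (0.923), for Alad Tecr (0.958), Nup188 (0.945) and Hgh1 (0.925), for Cyb5a Chchd10 (0.950), Timm13 (0.945) and Bola3 (0.937), for Fech Ryk (0.905), Zc3h10 (0.904) and Capn7 (0.887), and for Ahr Mul1 (0.904), Ruvbl2 (0.866) and Alg8 (0.829). Among the 8 genes themselves the highest values were 0.899 for Alad with Nr1i3 and 0.856 for Alas1 with Por.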

How the data were processed

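Poly(A) RNA of liver was sequenced in 12 libraries (850 ng of total RNA per library, per the labels' protocols). The deposited tables give the authors' read counts for genes, exons and introns and TPM values, per the file headers. Builds are mm10 and GRCm38, per the submitters' processing notes, and the sources used here do not name the aligner or the counting settings. GENCODE M21 gave the same coordinates for 5 of the 8 genes, and printed coordinates are those deposited. Total gene reads were tested with edgeR 4.0.16 in R 4.3.3 (filterByExpr with a minimum count of 10 and total of 15, TMM, quasi-likelihood, Benjamini-Hochberg over 15244 genes, adjusted p below 0.05) in 1 fit of 12 libraries. Intron reads had their own fit over 12380 genes. Intron share was tested by exact 2-sided permutation. Alternatives used DESeq2 1.42.0, limma 3.58.1 (voom), RLE size factors, library size alone, other filters, unique reads, exon reads, 6-library fits, a replicate block, each library left out, and 2 libraries left out. The fit was checked on simulated data. Named genes were Nfil3, the 8 genes, up to 4 others per list with the smallest p, and the 3 most alike per gene with a mean of at least 5 CPM. Gm, Rik and pseudogene names were left out of the most alike. Genes, lists and tests were chosen with earlier results of these data known.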

Additional observations from a re-analysis of the deposited data

How the results depend on the processing

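Over the alternatives run, the count of the 8 genes called for genotype and for the interaction was 0 throughout. For time in WT it ranged from 2 to 4 (1 to 3 when single libraries were left out), against 3, and for time in TG from 2 to 3, against 2. For intron reads the count in WT was 1 with DESeq2 and 4 without a filter, against 0, and 0 to 1 with single libraries left out. For intron reads in TG it was 2 with the TMM totals of gene reads and 3 without a filter, against 1, and 0 to 2 with single libraries left out.

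Directions turned only for differences that were not called. Leaving out the 2 libraries that stood apart gave 0.0143 for Alad, 0.0371 for Cyb5a and 0.10 for Nr1i3 (TG against WT at ZT2), 0.0329 for Fech (interaction) and -0.0018 for Cyb5a intron reads in WT, and limma-voom gave Alad 0.0024 (interaction). With single libraries left out, TG against WT at ZT2 ran from -0.13 to 0.0366 for Cyb5a, -0.32 to 0.10 for Nr1i3, -0.0563 to 0.20 for Por, -0.16 to 0.0139 for Alad and -0.00475 to 0.27 for Ahr. At ZT14 it ran from -0.0964 to 0.21 for Ahr and -0.11 to 0.0176 for Nr1i2, and the mean of both times from -0.43 to 0.088 for Alas1. Time in TG ran from -0.0531 to 0.27 for Ahr and -0.21 to 0.13 for Cyb5a. The interaction ran from -0.0757 to 0.098 for Alad, -0.042 to 0.0484 for Fech, -0.41 to 0.0112 for Nr1i3, -0.24 to 0.0788 for Ahr and -0.31 to 0.0349 for Cyb5a. Intron reads ran from -0.19 to 0.12 for Cyb5a in WT, and in TG from -0.0351 to 0.18 for Ahr and -0.17 to 0.61 for Por. Intron share differences ran from -0.0584 to 1.19 points for Ahr by time, and by genotype from -1.12 to 0.24 for Fech and -1.75 to 0.61 for Por. The causes were not tested.

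The replicate numbers did not pair the libraries: 2 of 18 same-number pairs had a correlation over 0.1 (range -0.25 to 0.15). A replicate block gave 2 calls for time in WT, losing Nr1i3 (0.85, adjusted p = 0.0854), 0.000174 for Alad (interaction) and -0.0023 for Cyb5a intron reads in WT, and 2 calls for the interaction over all genes.

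Over all genes, library size alone gave 1022 higher and 498 lower for time in WT against 739 and 659, and 1265 and 685 in TG against 1021 and 841. DESeq2 called 56, 51, 75 and 22 genes for genotype at ZT2, at ZT14, on the mean and for the interaction, against 11, 13, 22 and 1, and no filter gave 43, 41, 61 and 11. For the interaction, RLE size factors and unique reads gave 4 each, leaving out the 2 libraries 2, and single libraries 0 to 3. Intron calls in WT were 437 with DESeq2 and 825 unfiltered against 239, and in TG 1219 unfiltered against 698. Without the 2 libraries the counts were 12 on the mean, 1150 for time in TG and 317 for intron reads in TG. Single libraries left out gave 7 to 22, 10 to 17 and 13 to 25 for genotype, 770 to 1511 and 1127 to 1873 for time, and 104 to 318 and 280 to 795 for intron reads. Ahr, at 508 to 1059 reads, had the fewest reads of the 8 genes.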

Other observations

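Besides Alas1, the 9 genes with a larger within-group spread of intron share were Bcl6 (17.7 points), Zbtb16 (17.3), Atxn1 (17.2), Ces3b (13.9), Gm2788 (13.2), Slc25a30 (12.9), G6pc (11.8), Lpin1 (11.7) and Rapgef4 (11.4). Bcl6 and Zbtb16 encode transcriptional repressors, and G6pc the last enzyme of glucose release. Their intron shares ran, for example, from 17.4% to 63.3% in Bcl6 and from 2.64% to 38.4% in Ces3b over the 12 libraries. These genes were singled out after their values were seen.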
